A study of Mus musculus with 12 samples.

Results

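The genes of MHC class II antigen presentation were followed on 12 Affymetrix arrays of mouse splenic CD8 T cells. The members were H2-Aa, H2-Ab1, H2-Eb1, Cd74 and Ciita, and every probe set whose single annotated gene symbol was one of these names was taken. This gave 12 of 45101 probe sets, with 4 for H2-Aa, 3 for H2-Ab1, 1 for H2-Eb1, 1 for Cd74 and 3 for Ciita. Of these, 11 passed the filter on low signal, and the Ciita probe set 1447075_at did not.

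All mice carried Cre recombinase driven by the Cd4 promoter, which acts in the T lineage, were labelled male, and gave CD8 T cells enriched from spleen with a kit. The controls (genotype Cd4-Cre/Scap+/+, called WT) were littermates of the mice whose Scap alleles were floxed (Cd4-Cre/Scapfl/fl, called KO). By this design deletion is directed to cells that have expressed the Cre, and other cells left in the preparation would keep Scap. Scap was not measured by cell type here. Scap is the escort protein of the SREBP transcription factors of sterol and fatty acid synthesis. RNA was taken from quiescent cells (T0) or after 6 h with plate-bound antibody to CD3 and soluble antibody to CD28 (T6), with 3 arrays in each of the 4 groups, labelled as biological replicates. The labels give neither strain nor age.

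MHC class II molecules carry peptides from endocytosed proteins to the cell surface for recognition by CD4 T cells. H2-Aa and H2-Ab1 encode the alpha and beta chains of the I-A molecule, and H2-Eb1 encodes the beta chain of I-E. Cd74 encodes the invariant chain, which fills the groove of new class II molecules and guides them to the endosome, and Ciita encodes the transactivator that is the main switch of these genes. B cells, dendritic cells and macrophages express them strongly, whereas mouse T cells, unlike activated human T cells, are known to express little or no class II of their own. In bulk RNA such as this, fewer cells of a type and less RNA per cell cannot be told apart.

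Class II promoters share an ordered pair of elements, the X box bound by the RFX complex and the Y box bound by NF-Y, on which the CIITA protein is assembled. The promoter stretches below, from RefSeq (assembly GRCm38.p6, each read 5′ to 3′ on the gene's own strand), are shown because H2-Aa, H2-Eb1, H2-Oa and H2-Ob, which fell on activation in WT cells, carry the pair, as does H2-Eb2, whose change was not called. Capitals mark GCAAC, a core of the X box, and ATTGG, the Y box (CCAAT on the other strand).
H2-Aa: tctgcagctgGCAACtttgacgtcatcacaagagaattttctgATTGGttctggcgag
H2-Eb1: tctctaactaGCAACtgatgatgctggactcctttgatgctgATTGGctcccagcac
H2-Oa: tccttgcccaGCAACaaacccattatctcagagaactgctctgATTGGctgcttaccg
H2-Ob: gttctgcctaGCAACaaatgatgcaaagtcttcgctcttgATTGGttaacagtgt
H2-Eb2: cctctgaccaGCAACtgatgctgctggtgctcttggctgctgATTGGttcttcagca
The stretches lie at chr17:34287857-34287914 on the minus strand for H2-Aa and, on the plus strand, at chr17:34305766-34305822 for H2-Eb1, chr17:34092293-34092350 for H2-Oa, chr17:34238808-34238862 for H2-Ob and chr17:34325533-34325589 for H2-Eb2. Between the elements lie 28 bases in H2-Aa, 27 in H2-Eb1, 28 in H2-Oa, 25 in H2-Ob and 27 in H2-Eb2. A search for GCAAC followed after 25 to 30 bases by ATTGG, on either strand, matched 93 of 32851 promoters (0.283%), whereas ATTGG alone matched 12289 (37.4%). The spacing was chosen after these promoters had been read. The table held a promoter for 2 of the 5 members (H2-Aa and H2-Eb1), both with the pair, and for 6 of 7 genes of class II loading and minor chains, of which 3 had it. A match is a run of letters and not a measured binding site.

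Levels are given as log2(signal + 16), where the signal is the scaled intensity of the gene's brightest probe set. The arrays had median signals between 61.3 and 76.2, and arrays of a group correlated at 0.969 to 0.978. Cd8a, a marker of the labelled cell type, was bright, and its brightest probe set averaged 13.49 in WT T0, 13.06 in WT T6, 13.36 in KO T0 and 12.70 in KO T6. Of 3 CD4 T cell markers, Cd4 stayed at or below 5.23 in both of its probe sets and did not pass the filter, whereas Zbtb7b and Foxp3 passed it. Their mean level was 6.04 to 6.22 in WT T0, 6.62 to 6.81 in KO T0, 5.20 to 6.38 in WT T6 and 5.84 to 6.73 in KO T6, and neither was called by limma in any comparison (Zbtb7b had an unadjusted p under 0.05 in KO T0 against WT T0 and in KO activation). Scap, the targeted gene, lay between 11.03 and 11.53 in WT T0, 10.83 and 11.27 in KO T0, 11.55 and 11.60 in WT T6, and 11.06 and 11.13 in KO T6. The KO minus WT difference was -0.25 at T0 and -0.47 at T6 (SE 0.14 for both), with limma adjusted p-values of 0.593 and 0.273. Where the probes lie relative to the deleted part was not analysed here. The mean level of 3 erythroid markers was 11.69, 12.61 and 9.60 on the KO T0 arrays (replicates 1, 2 and 3) and 10.83, 12.84 and 9.05 on the KO T6 arrays, against 8.30 to 9.21 on the 6 WT arrays, and replicate 2 was highest in both KO groups. All 3 had higher means in KO at both times (median difference 2.32 at T0 and 1.92 at T6), with 0 called by limma and 1 at an unadjusted p under 0.05 at each time, and their part in the class II differences was not tested. Leaving out replicate 2 of KO T0 or of KO T6 changed no call of a member, and without KO T6 replicate 2 the activation change of H2-Ab1 in KO was -0.69. The number of arrays limits the precision.

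In WT cells, class II transcripts fell during activation. H2-Aa, H2-Ab1, H2-Eb1 and Cd74 stood 2.93-fold to 3.33-fold lower at T6 than at T0, and the transactivator Ciita was 1.83-fold lower without passing the test. Calls rest on an adjusted p under 0.05 (Benjamini-Hochberg, over the 13158 genes tested in one limma fit). By this rule 4 of the 5 members were called lower, against 13.8% of all genes, and the 3 T6 arrays lay below the 3 T0 arrays without overlap for 5 of 5 members, against 23.6% of all genes.

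Cd74 read 12.79, 12.58 and 11.88 on the WT T0 arrays (replicates 1, 2 and 3) and 11.68, 10.40 and 9.99 on the WT T6 arrays. The lowest quiescent array stood above the highest activated one, by little, because replicate 3 was low at T0 and replicate 1 was high at T6. The decrease averaged -1.73 on the log2 scale (SE 0.42, adjusted p = 0.013 by limma), 3.31-fold on this scale. Without WT T0 replicate 1 it was -1.54 (limma adjusted p = 0.050) and was no longer called. In a fit restricted to the 6 arrays of WT cells it had a limma adjusted p of 0.052.

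H2-Aa, the alpha chain of I-A, read 13.15, 12.94 and 12.39 at T0 and 12.01, 11.04 and 10.77 at T6. H2-Ab1, its partner chain, read 11.49, 11.08 and 10.50 at T0 and 10.04, 9.02 and 8.81 at T6. In both genes every activated array was below every quiescent one, and replicate 1 was the highest of each group. The log2 change was -1.55 for H2-Aa (SE 0.32, adjusted p = 0.0056) and -1.74 for H2-Ab1 (SE 0.41, adjusted p = 0.012) by limma, 2.93-fold and 3.33-fold.

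H2-Eb1, the I-E beta chain, read 12.07, 11.77 and 11.17 at T0 and 10.80, 9.51 and 9.74 at T6. It changed by -1.65 (SE 0.35, limma adjusted p = 0.0070), 3.15-fold, with no overlap between the states. Ciita read 7.57, 7.28 and 7.18 at T0 and 6.71, 6.36 and 6.33 at T6. Its arrays did not overlap either, but the difference of -0.87 (SE 0.30, limma adjusted p = 0.057) missed the threshold. Its call moved with the setting: a filter at percentile 60 (adjusted p = 0.038), a trended variance (0.048) and the fit restricted to WT cells (0.016) brought it under the limma threshold, as did leaving out KO T0 replicate 1 (0.036) or KO T6 replicate 1 (0.025).

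**Figure D1:**
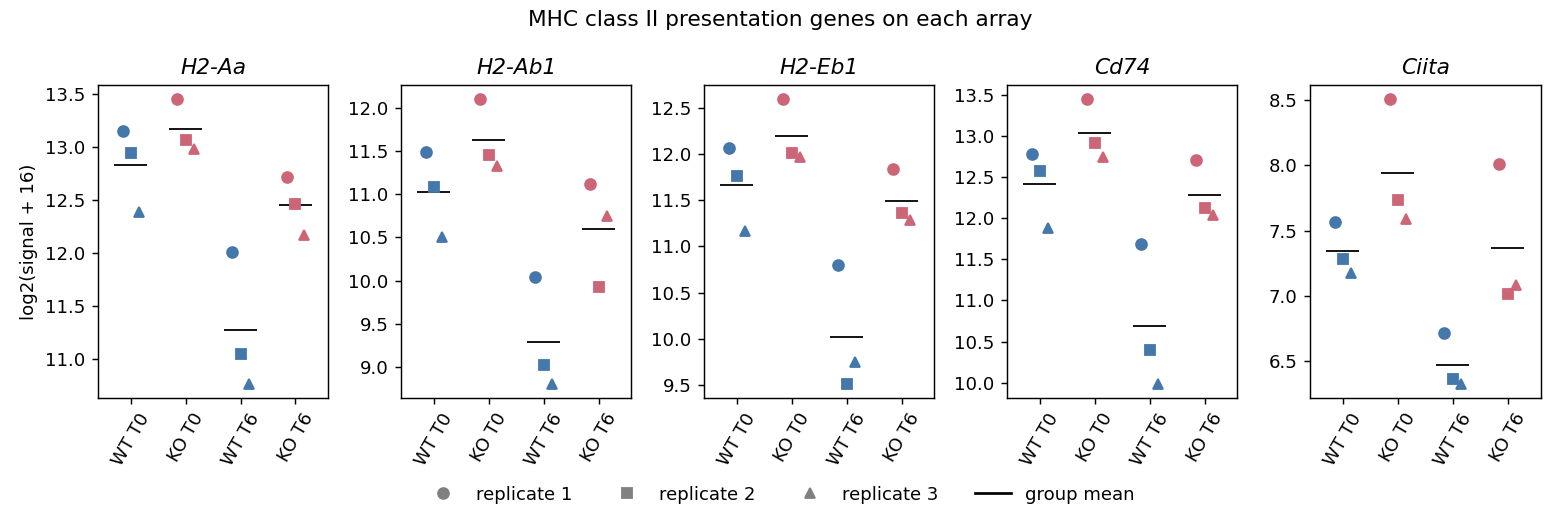
Log2(signal + 16) of H2-Aa, H2-Ab1, H2-Eb1, Cd74 and Ciita, with 1 panel a gene, 1 symbol an array (its shape gives the replicate) and a line for each group mean. For H2-Aa, H2-Eb1 and Cd74 the 3 WT T6 arrays lie below all other arrays, and replicate 1 is the highest point of every group.

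In KO cells the same genes had lower signals at T6 than at T0, by smaller amounts, and 0 of the 5 were called, against 10.4% of all genes called lower. Unadjusted, 2 passed 0.05 in limma (H2-Aa and H2-Ab1), and the arrays did not overlap for 4 of 5 members, against 17.6% of all genes. In KO cells arrays of the same replicate number deviated together, and with replicate number as a block limma called 4 of 5 lower, against 10.4% of all genes in that fit. These were H2-Aa (adjusted p = 0.025), H2-Ab1 (0.020), Cd74 (0.049) and Ciita (0.0099), and H2-Eb1 stayed at 0.052. That fit blocked the WT arrays by number as well and shared the spread over both genotypes, so these p-values rest in part on the WT numbering.

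Cd74 read 13.45, 12.92 and 12.74 in KO T0 and 12.71, 12.12 and 12.04 in KO T6. H2-Ab1 read 12.10, 11.46 and 11.32 and then 11.12, 9.93 and 10.75. Neighbouring arrays of both states were close, at 12.74 and 12.71 for Cd74 and at 11.32 and 11.12 for H2-Ab1. The log2 difference was -0.75 for Cd74 (SE 0.42, 95% interval -1.67 to 0.18, limma adjusted p = 0.250) and -1.03 for H2-Ab1 (SE 0.41, interval -1.94 to -0.12, limma adjusted p = 0.109).

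H2-Aa read 13.45, 13.07 and 12.98 in KO T0 and 12.71, 12.46 and 12.17 in KO T6, a difference of -0.72 (SE 0.32, limma adjusted p = 0.144). H2-Eb1 read 12.60, 12.02 and 11.97 and then 11.84, 11.36 and 11.29, a difference of -0.70 (SE 0.35, limma adjusted p = 0.199). In both genes the KO T6 arrays reached no lower than 11.29, while the WT T6 arrays of H2-Eb1 went down to 9.51 and those of H2-Aa to 10.77. Ciita read 8.50, 7.74 and 7.59 in KO T0 and 8.01, 7.02 and 7.08 in KO T6, and its states overlapped (difference -0.57, SE 0.30, limma adjusted p = 0.217). Without KO T6 replicate 1, the highest array of its group, the Ciita difference was -0.89 (limma adjusted p = 0.048) and was called.

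That the fall was called in WT and not in KO does not show that the genotypes differed in it, and the difference of the changes was tested directly. The KO change minus the WT change was 0.84 for H2-Aa (SE 0.45, 95% interval -0.16 to 1.83), 0.71 for H2-Ab1 (SE 0.58, -0.58 to 2.0), 0.95 for H2-Eb1 (SE 0.50, -0.15 to 2.06), 0.98 for Cd74 (SE 0.59, -0.33 to 2.29) and 0.30 for Ciita (SE 0.42, -0.64 to 1.24). In limma 0 of 5 passed at an adjusted p under 0.05 (adjusted p = 0.9997 for each) and 0 of 5 at an unadjusted p under 0.05, and 0% of all genes were called. The intervals hold both no difference and differences of over 1 log2 unit.

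Activated KO cells carried higher class II signals than activated WT cells, yet no member reached the threshold. The KO T6 minus WT T6 difference was 1.18 for H2-Aa (SE 0.32, adjusted p = 0.211), 1.31 for H2-Ab1 (SE 0.41, 0.287), 1.48 for H2-Eb1 (SE 0.35, 0.183), 1.60 for Cd74 (SE 0.42, 0.201) and 0.90 for Ciita (SE 0.30, 0.298) by limma, or 2.26-fold, 2.48-fold, 2.79-fold, 3.03-fold and 1.87-fold. In this comparison 0 of 5 members were called, against 0.0304% of all genes called higher. At an unadjusted p under 0.05 in limma the count was 5 of 5, for which no share of all genes is given. By p the members held positions 127 (H2-Eb1) to 564 (Ciita) of the 13158 genes. The 3 KO arrays lay above the 3 WT arrays for 4 of 5 members, against 10.8% of all genes. The exception was H2-Ab1, whose KO T6 replicate 2 (9.93) fell below WT T6 replicate 1 (10.04).

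Ordered by the size of the difference among the 13158 genes, Cd74 stood at position 57, H2-Eb1 at 86, H2-Ab1 at 142, H2-Aa at 210 and Ciita at 516. The median over the 5 members was 1.31, and the median over all genes was 0.04.

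In quiescent cells no member differed between the genotypes beyond the threshold. The KO T0 minus WT T0 difference was 0.34 for H2-Aa (SE 0.32, 95% interval -0.36 to 1.04), 0.60 for H2-Ab1 (SE 0.41, -0.31 to 1.51), 0.53 for H2-Eb1 (SE 0.35, -0.26 to 1.31), 0.62 for Cd74 (SE 0.42, -0.31 to 1.55) and 0.60 for Ciita (SE 0.30, -0.06 to 1.27). By limma the adjusted p-values ran from 0.551 to 0.736, and 0 of 5 members were called, as were 0% of all genes in this direction. At an unadjusted p under 0.05 the count was also 0 of 5. Only Ciita had 3 KO arrays above 3 WT arrays, a pattern of 8.12% of all genes, and its margin was narrow (7.59 against 7.57). All intervals held 0.

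**Figure D2:**
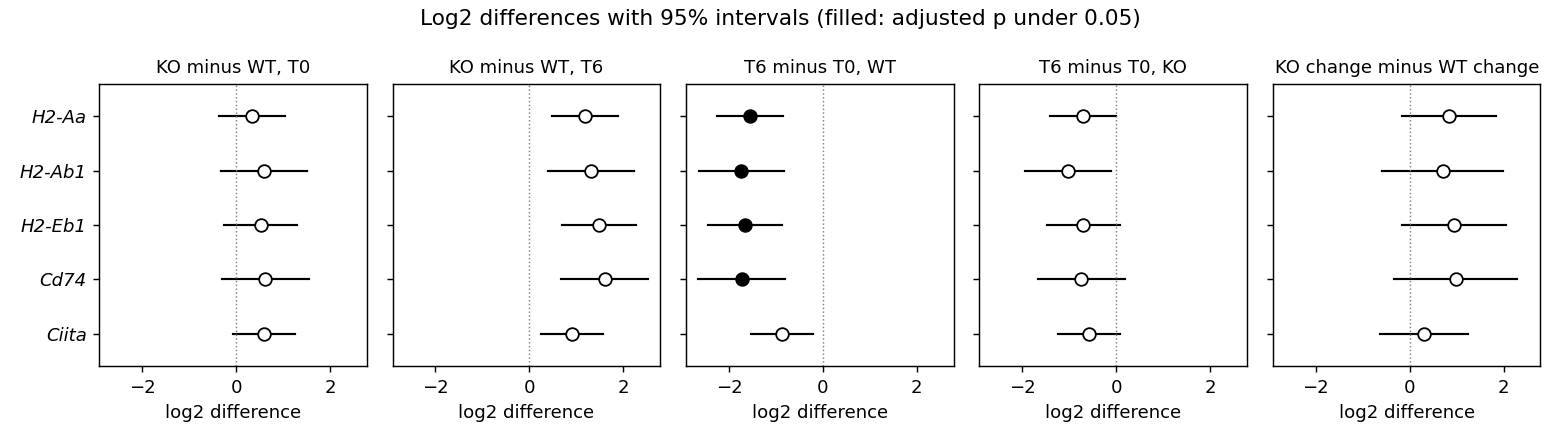
Log2 differences of the 5 members in the 5 comparisons, with 95% intervals from limma and filled points where the adjusted p was under 0.05. The 4 filled points are the falls of H2-Aa, H2-Ab1, H2-Eb1 and Cd74 in WT activation, and the KO activation points are all nearer to 0.

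Group means fell in the same order for H2-Aa, H2-Ab1, H2-Eb1 and Cd74, namely KO T0, WT T0, KO T6 and WT T6. Cd74 averaged 13.04 ± 0.37, 12.42 ± 0.47, 12.29 ± 0.37 and 10.69 ± 0.88 in these groups (SD, n = 3). H2-Eb1 averaged 12.20 ± 0.35, 11.67 ± 0.46, 11.49 ± 0.30 and 10.02 ± 0.69 (SD, n = 3). For H2-Aa, H2-Eb1 and Cd74 the ranges of neighbouring groups overlapped except in the last step, from KO T6 to WT T6, and for H2-Ab1 they overlapped in that step too.

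H2-Aa averaged 13.16 ± 0.25 in KO T0, 12.83 ± 0.39 in WT T0, 12.45 ± 0.27 in KO T6 and 11.27 ± 0.65 in WT T6 (SD, n = 3). H2-Ab1 averaged 11.63 ± 0.42, 11.03 ± 0.50, 10.60 ± 0.61 and 9.29 ± 0.66 in that order (SD, n = 3). Ciita had another order, KO T0 (7.94 ± 0.49), KO T6 (7.37 ± 0.55), WT T0 (7.34 ± 0.20) and WT T6 (6.47 ± 0.21) (SD, n = 3). Only its last step was free of overlap, and its KO T6 and WT T0 means were nearly equal.

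The probe sets of a gene had differences of the same sign and of unequal size. Across the 11 tested member probe sets, the WT activation change ran from -0.60 to -2.55, and 9 of 11 were called in limma, against 12.2% of all 24543 probe sets called lower. Both Ciita probe sets were the ones not called. The KO activation change ran from -0.24 to -1.03 with 0 of 11 called by limma, against 10.8% called lower.

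The probe set 1438858_x_at of H2-Aa had the largest change of the 11 in WT activation and the largest KO minus WT difference at T6, but not the largest in KO activation or between the genotypes at T0. It read 12.72, 12.69 and 12.20 in WT T0, 10.83, 9.74 and 9.38 in WT T6, 13.18, 12.84 and 12.64 in KO T0, and 12.15, 11.80 and 11.76 in KO T6. Its WT T6 arrays lay well below all others, and its KO T6 arrays lay below the quiescent arrays of either genotype. It changed by -2.55 in WT activation (SE 0.33, adjusted p = 0.0005), where the brightest H2-Aa probe set, 1435290_x_at, changed by -1.55.

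At T6 1438858_x_at was higher in KO by 1.92 (SE 0.33, adjusted p = 0.040 over all probe sets, limma), the single one of 11 member probe sets called there, against 0.0774% of all probe sets called higher. The KO minus WT differences of the 11 at T6 ran from 0.61 to 1.92. For the difference of the activation changes it gave 1.57 (SE 0.46, limma adjusted p = 0.816), and 0 of 11 were called, against 0% of all probe sets.

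All 4 H2-Aa probe sets and 2 of the 3 of H2-Ab1 bear the _s_at or _x_at ending that Affymetrix gives where some probes can match other transcripts, so related class II genes may share in their signal. H2-Eb1 and Cd74, each read by 1 probe set without those endings, changed by similar amounts. The Ciita probe set that failed the filter, 1447075_at, read between 4.20 and 5.77 on the 12 arrays, near the floor of 4 that the added 16 sets.

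**Figure D3:**
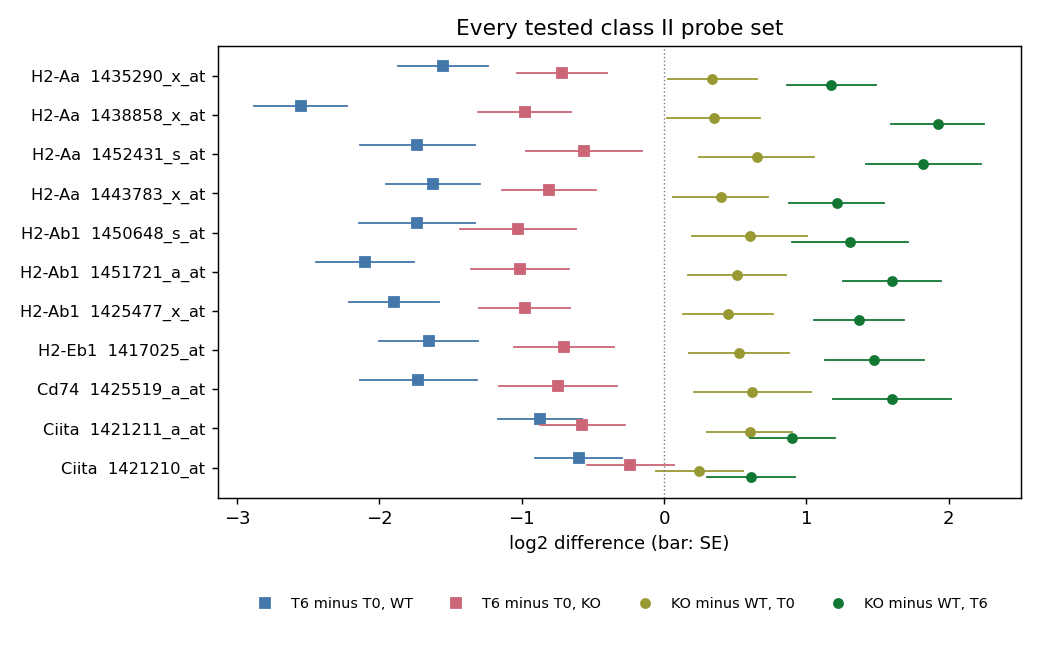
Log2 differences of the 11 tested member probe sets, 1 row each, with bars for the standard error. Squares are T6 minus T0 and circles KO minus WT. In WT activation every square lies left of 0 and left of the KO square of its probe set, and the T6 circles of H2-Aa, H2-Ab1, H2-Eb1 and Cd74 lie between 1.18 and 1.92.

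Replicate 1 carried the highest class II signal. Over 12 probe sets in 4 groups, it was the highest of its group in 41 of 48 cases, replicate 2 in 7 and replicate 3 in 0, and for the brightest probe set of all 5 genes it was the highest in every group. Replicate numbers come from the sample titles, and whether arrays of the same number share a mouse is not stated.

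Across the 12 arrays the members followed each other closely. Pearson correlations between pairs of members ran from 0.893 to 0.989, and from 0.671 to 0.988 after group means were subtracted. H2-Aa and Cd74 were the closest pair (0.989 and 0.988). These describe 12 arrays that share groups, cell preparations and per-array scaling.

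Markers of antigen-presenting cells were detected, and their levels differed between the groups. Of 13 B cell markers, 12 were tested, and none was at 0. Their summed signal ranged from 1736 to 3499 in WT T0, 971.1 to 1958 in WT T6, 3149 to 11743 in KO T0 and 2655 to 7220 in KO T6. The KO ranges reached higher than the WT ranges in both states, with 12 of 12 differences above 0 (median 1.04 at T0 and 1.26 at T6). By limma 0 were called at either time, and 5 at T0 and 7 at T6 had an unadjusted p under 0.05.

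Ms4a1, which encodes the B cell antigen CD20, differed by 2.15 at T0 and by 2.01 at T6 (SE 0.78 for both), with limma adjusted p-values of 0.456 and 0.369. The mean B cell marker level was highest on replicate 1 of every group, at 7.71 against 7.04 and 6.72 in WT T0, 7.15 against 6.22 and 6.34 in WT T6, 9.27 against 7.52 and 7.99 in KO T0, and 8.62 against 7.36 and 7.45 in KO T6. The members were highest on the same arrays.

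With the B cell marker mean as a covariate, the T6 difference between genotypes was 0.60 for H2-Aa, 0.46 for H2-Ab1, 0.75 for H2-Eb1, 0.80 for Cd74 and 0.22 for Ciita (limma adjusted p from 0.436 to 0.642). Each was smaller than without the covariate. This marker mean was itself higher in KO at T6 (7.81 against 6.57 in WT), so the fit could hardly separate it from genotype. The activation change in WT with this covariate was -1.28, -1.33, -1.31, -1.35 and -0.55 in the same order. In WT activation the markers themselves had a median change of -0.42, and 1 of 12 was called lower, against 13.8% of all genes.

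Most macrophage and monocyte markers fell on activation in both genotypes. Of 14 markers 13 were tested, and none was at 0. Limma called 12 of 13 lower in WT (median -2.58) and in KO (median -2.53), against 13.8% and 10.4% of all genes. Their summed signal ranged from 17871 to 24303 in WT T0, 1357 to 2793 in WT T6, 27142 to 33812 in KO T0 and 3108 to 4754 in KO T6. KO arrays were above WT arrays at both times without overlap in this sum.

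At T6, 13 of 13 macrophage and monocyte markers had higher means in KO (median 0.75), and 2 were called, against 0.0304% of all genes called higher. These were the myeloid adaptor gene Tyrobp at 1.68 (SE 0.25, adjusted p = 0.048) and the adhesion molecule gene Vcam1 at 1.13 (SE 0.16, adjusted p = 0.048) by limma. At T0 12 of 13 differences were above 0 (median 0.52), with 0 called and 5 at an unadjusted p under 0.05. With the mean of these markers as a covariate, the T6 difference of Cd74 was 0.63 (SE 0.64) and 0 of 5 members were called in WT activation. This marker mean lay between 9.91 and 10.72 at T0 and between 6.69 and 7.93 at T6, so activation changes could hardly be separated from it.

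**Figure D4:**
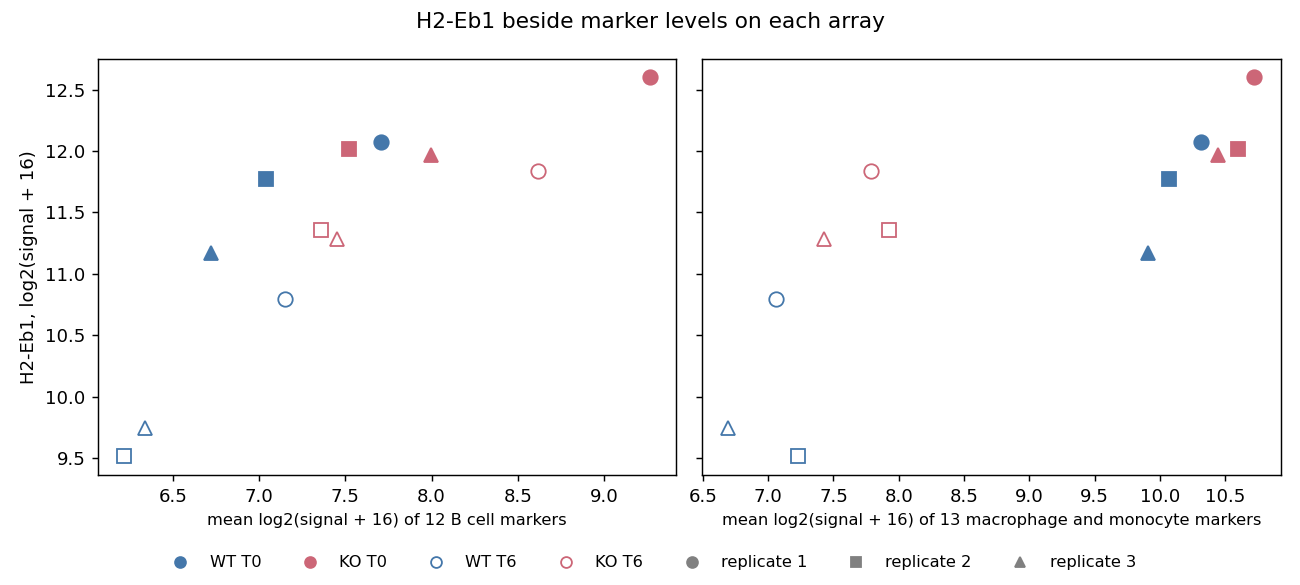
H2-Eb1 level (vertical, log2(signal + 16)) against the mean level of 12 B cell markers (left) and of 13 macrophage and monocyte markers (right), with 1 symbol an array, WT in blue, KO in red, T0 filled and T6 open. Replicate 1 (circles) has the highest B cell marker mean of each group, and on the right the T6 arrays (6.69 to 7.93) lie apart from the T0 arrays (9.91 to 10.72).

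Of 10 dendritic cell markers 9 were tested, and none was at 0. Limma called 5 lower in WT activation and 4 in KO, against 13.8% and 10.4% of all genes. The transcription factor gene Zbtb46 had a higher mean after WT activation (0.67, not called). The summed signal of these markers ranged from 7892 to 9389 in WT T0, 2036 to 2686 in WT T6, 4917 to 7930 in KO T0 and 1925 to 2309 in KO T6. This sum was mostly Ccr9, which T cells also express, so it does not measure dendritic cells. Ccr9 averaged 12.86 in WT T0 and 12.08 in KO T0, and the next brightest marker, Itgax, 8.35 and 8.78. The mean level of the 9 markers went the other way at T0, at 7.53 in WT and 8.18 in KO. In KO against WT, 8 of 9 were above 0 at T0 and 6 of 9 at T6, with 0 called by limma and 6 and 5 at an unadjusted p under 0.05. T cell markers had lower means in KO for 10 of 10 genes at both times (medians -0.25 and -0.30), with 0 called by limma and 2 and 4 at an unadjusted p under 0.05. The part of B cells, dendritic cells and macrophages in the class II differences was not tested.

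Correlation with the B cell marker mean over the 12 arrays was 0.924 for Ciita, 0.835 for H2-Eb1, 0.832 for Cd74, 0.819 for H2-Ab1 and 0.773 for H2-Aa. After group means were subtracted it was 0.933, 0.838, 0.771, 0.828 and 0.745. With the macrophage and monocyte mean the subtracted values were 0.401 for Ciita, 0.386 for H2-Eb1, 0.533 for Cd74, 0.280 for H2-Ab1 and 0.598 for H2-Aa. The points share arrays, scaling and groups, and no test is given.

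Of all other tested genes, Mpeg1 followed the mean of H2-Aa, H2-Ab1, H2-Eb1 and Cd74 most closely over the 12 arrays (r = 0.977). It encodes perforin-2, a pore-forming protein abundant in macrophages. Ifi30 (0.970), Marcks (0.968), Cst3 (0.960), which encodes the protease inhibitor cystatin C, and Ly86 (0.957), which encodes the partner protein of the B cell receptor RP105, came next. With group means subtracted the nearest were Ly86 (0.944), Asb2 (0.920), Trim47 (0.918), Treml4 (0.906) and the immunoglobulin segment Igkv5-39 (0.903).

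Ciita was nearest to Unc93b1 (0.981), which encodes a chaperone of Toll-like receptors, and then to the B cell receptor subunit gene Cd79b (0.980), the B cell lectin gene Cd22 (0.973), the B cell scaffold gene Bank1 (0.951) and the phosphatase gene Ptprj (0.939). Cd79b and Cd22 are also in the B cell marker list. Each is the closest of 13153 genes by construction.

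Among the partners of class II, the peptide-loading and minor chains behaved unevenly. H2-Oa and H2-Ob, the chains of the DO molecule that restrains peptide loading, fell in both genotypes. H2-Oa changed by -1.13 in WT (SE 0.14, adjusted p = 0.0004) and -0.93 in KO (SE 0.14, adjusted p = 0.0014), and H2-Ob by -0.97 in WT (SE 0.31, adjusted p = 0.042) and -1.01 in KO (SE 0.31, adjusted p = 0.042), all by limma. Between genotypes both stayed close at T6, at 0.16 and 0.05, and neither was called. Of the 5 tested genes of this list, 2 were called lower in each genotype and 0 higher, against 13.8% (WT) and 10.4% (KO) of all genes called lower.

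H2-DMb2, a beta chain of the DM molecule that edits peptides, had values near those of the members, at 0.93 for the quiescent genotypes and 1.58 at T6 (SE 0.46, limma adjusted p = 0.253), and -1.0 and -0.35 on activation in WT and KO. H2-DMa, the alpha chain of DM, had 0.50 at T6 (SE 0.19, limma adjusted p = 0.348). On activation H2-DMa changed by -0.29 in WT and, unlike the members, by 0.30 in KO (SE 0.19 for both). The minor beta chain H2-Eb2 had -0.12 at T6, with activation changes of -0.45 in WT and -0.44 in KO. None of these values passed the test. All 3 probe sets of H2-Ea, the alpha chain of I-E, stayed between 4.26 and 5.83 and did not pass the filter. Mice of the H2-b haplotype are known to lack H2-Ea transcripts. H2-DMb1 was not analysed here.

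Of the 6 tested genes that process antigen for class II, 4 were called lower on activation in WT and 4 in KO, against 13.8% and 10.4% of all genes, and 0 in KO against WT at either time (unadjusted, 1 at T0 and 3 at T6). Lgmn, the endosomal asparagine endopeptidase, changed by -2.28 in WT (SE 0.30, adjusted p = 0.0005) and -1.71 in KO (SE 0.30, adjusted p = 0.0030), and Ifi30, the lysosomal thiol reductase GILT, by -1.5 (SE 0.22, adjusted p = 0.0010) and -0.77 (SE 0.22, adjusted p = 0.035) in limma.

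The cathepsin gene Ctsb changed by -1.35 in WT and -1.16 in KO and Ctsd by -1.03 and -0.95, all called by limma. The cathepsins that cleave the invariant chain differed from these, with Ctss at -0.27 and -0.26 and Ctsl at 0.07 and 0.11, none called. At T6 Ifi30 stood 1.30 higher in KO (SE 0.22, limma adjusted p = 0.083) and Lgmn 1.01 (SE 0.30, limma adjusted p = 0.262), both short of the threshold.

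Of the 7 tested genes for factors that bind class II promoters, limma called 3 lower in WT activation and 2 in KO. The shares of all genes called lower were 13.8% and 10.4%. Between genotypes 0 of the 7 were called (unadjusted, 1 at T0 and 0 at T6). The RFX subunit gene Rfxap changed by -0.45 in WT and -0.52 in KO, and Creb1, whose protein binds beside RFX, by -0.65 and -0.82. The brightest probe set of the RFX subunit gene Rfxank changed by -0.86 in WT (SE 0.12, limma adjusted p = 0.0006) and -0.35 in KO (SE 0.12, limma adjusted p = 0.059). The dimmer Rfxank probe sets moved less, with means from 7.01 at T0 to 6.79 at T6 and from 8.05 to 7.92 in WT. In KO these went from 6.79 to 6.66 and, upward, from 8.06 to 8.21. The larger WT fall of Rfxank thus rests on its brightest probe set. Rfx5, Nfya, Nfyb and Nfyc were not called in any comparison.

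Marchf1, a ubiquitin ligase that removes class II from the surface, fell by 2.13 on the log2 scale in WT (SE 0.19) and 2.15 in KO (SE 0.19), called in both by limma. Its WT T6 mean of 5.40 lay under the filter percentile of every array (5.64 to 5.87), so the size of the WT fall is uncertain. Marchf8, its relative, was not called. Among the costimulatory genes of antigen-presenting cells, Cd86 changed by -0.63 in WT and -0.53 in KO, both called, and Cd40 by 0.71 in WT, not called, and 1.49 in KO, called (limma). Cd80 was called higher in WT, where its T0 mean of 4.61 lay under that percentile and no size is given, and was not called in KO. Between genotypes 0 of these 5 genes were called (at an unadjusted p under 0.05, 2 at T0 and 4 at T6).

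Some class I presentation genes rose on activation. Of 10 class I genes, 4 were called higher in WT, against 11.3% of all genes, and 5 in KO, against 10.4%, and 0 lower. The peptide transporter subunits were among them, Tap1 at 0.51 in WT and 0.71 in KO and Tap2 at 0.73 and 0.56, as were the loading bridge Tapbp at 0.34 and 0.43 and the trimming peptidase Erap1 at 0.57 and 0.59. The proteasome subunit Psmb9 was called in KO alone, at 0.48 against 0.29 in WT. Between genotypes 0 of 10 were called (unadjusted, 1 at each time), with medians of -0.13 at T0 and -0.05 at T6.

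Interferon gamma induces Ciita in many cell types. Its gene, Ifng, rose by 3.14 in WT (SE 0.22) and 3.42 in KO (SE 0.22), and the signalling inhibitor Socs1 by 2.33 and 2.25. The receptor chain Ifngr1 rose by 1.09 and 1.22, Irf1 by 0.65 and 0.81 and Jak2 by 0.85 and 0.67, whereas the other receptor chain, Ifngr2, fell by 1.59 in WT and by 1.30 in KO on the log2 scale, all called by limma. In the same samples Ciita was not called higher in either genotype, at -0.87 and -0.57, and 0 of 6 genes of this list were called between genotypes (unadjusted, 1 at T0 and 0 at T6).

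The class II genes lie beside class I genes on chromosome 17, which allows a comparison of neighbours. H2-Ab1, H2-Aa and H2-Eb1 are consecutive in the RefSeq order, and before them come Psmb9, Tap1, Psmb8, Tap2 and H2-Ob. At T6 the KO minus WT differences of these 5 neighbours were 0.06, -0.03, -0.07, -0.04 and 0.05, against 1.31, 1.18 and 1.48 for the members. H2-Eb2, on the other side, had -0.12. The region farther out was not flat. Before Psmb9, H2-DMb2 had 1.58, H2-DMa 0.50, Brd2 -0.21, H2-Oa 0.16 and Col11a2 -0.15, and beyond H2-Eb2, BC051142 had 0.54. None of these was called. Cd74 and Ciita lie elsewhere, on chromosomes 18 and 16, and had 1.60 and 0.90.

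**Figure D5:**
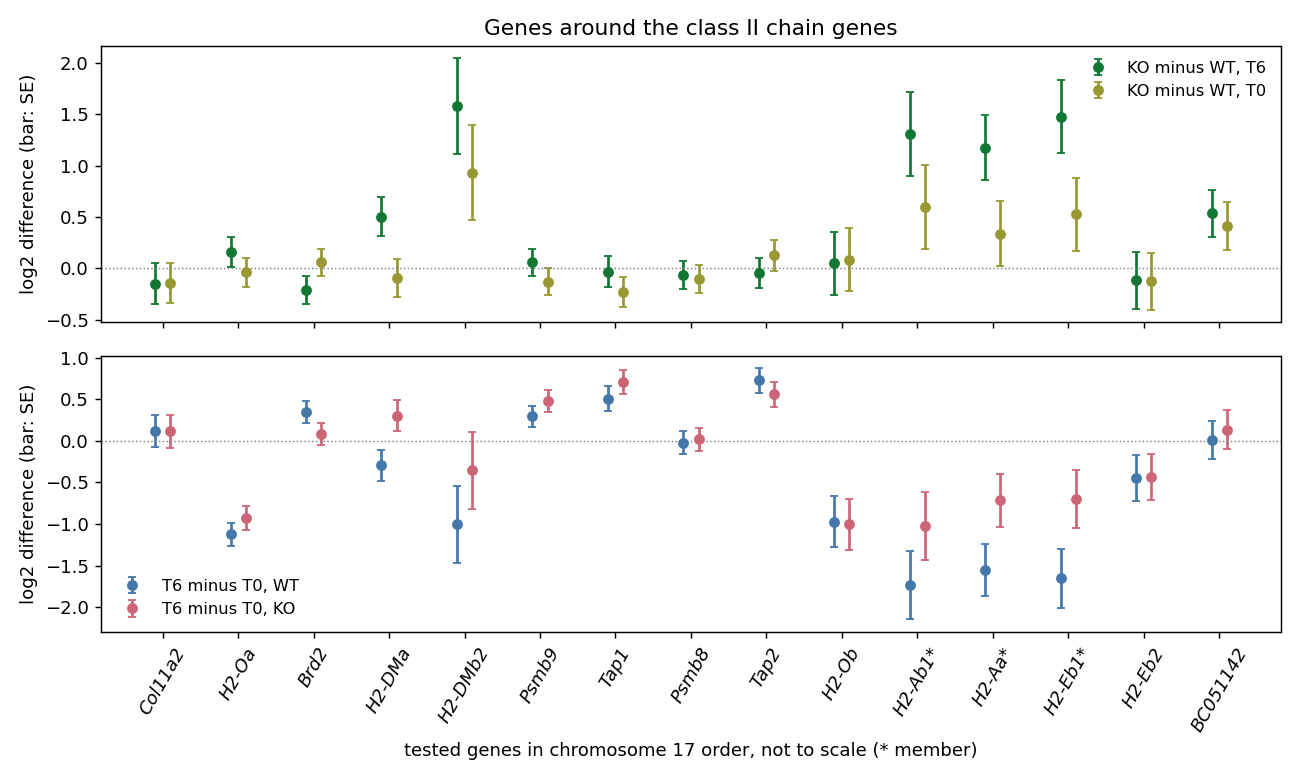
Log2 differences of the tested genes around H2-Ab1, H2-Aa and H2-Eb1 on chromosome 17, in gene order and not to distance, with bars for the standard error, for KO minus WT (top) and T6 minus T0 (bottom). At T6 the 3 members and H2-DMb2 stand above 1 in KO minus WT, while Psmb9, Tap1, Psmb8, Tap2, H2-Ob and H2-Eb2 lie between -0.12 and 0.06.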

How the data were processed

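The deposited values are linear signal intensities of Affymetrix probe sets, made by the authors with GCOS per the submitters' processing notes. Its version and settings are not given in the sources used here. The mean between percentiles 2 and 98 was 500.003 on each array, so signals had been scaled per array, and shifts of total RNA are not visible. Probe sets were named through the platform annotation, and 34945 carried a single symbol (18193 genes). Intensities became log2(signal + 16), which understates changes of dim genes, without further normalization. Each gene took its probe set of highest mean, kept if over the 40th percentile on 3 or more arrays (13158 genes, 24543 probe sets). limma 3.58.1 in R 4.3.3 (lmFit, eBayes, two-sided) fitted the 4 groups on 12 arrays, with Benjamini-Hochberg adjustment over all genes and a threshold of 0.05, and was tested on simulated data. The text names all members, the genes of the pathway, class I, interferon and marker lists, and the 5 genes closest in pattern. Members and lists were chosen with earlier results of these data known. Counts at an unadjusted p under 0.05 are given without the share of all genes. Alternatives covered the added constant, filter, probe set choice, normalization, variance trend, arrays fitted, replicate block, marker covariates and leaving out arrays. Across genes, after group means were subtracted, arrays of one replicate number correlated at 0.18, 0.46 and 0.38 between the KO states, each best with its own number, and at 0.23, -0.06 and -0.11 between the WT states. The numbers were therefore read as pairs for KO activation alone, where the blocked result is given beside the other. That fit also blocked the WT arrays by number, and their spread entered the KO p-values.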

Additional observations from a re-analysis of the deposited data

How the results depend on the processing

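Over 25 results (5 genes in 5 comparisons) and 25 alternatives, 591 of 625 values kept direction and side of the threshold, 14 gained a call, 2 lost one with the same direction (both Cd74 in WT activation), and 18 reversed. Among the reversed values the macrophage and monocyte covariate also ended the WT activation calls of H2-Aa, H2-Ab1, H2-Eb1 and Cd74. The number of members called by limma in WT activation was 4, and ranged from 3 to 5 when single arrays were left out (3 without WT T0 replicate 1). In KO activation it ranged from 0 to 1 (1 without KO T6 replicate 1), and in the other comparisons it stayed at 0. For Ciita the difference between the activation changes ranged from -0.0205 (without KO T6 replicate 1) to 0.58 (without KO T0 replicate 1).

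A replicate block gave 2 members called in KO against WT at T6 (H2-Eb1, adjusted p = 0.038, and Cd74, 0.047) by limma, against 0.122% of all genes called higher in that fit, 4 in KO activation and 5 in WT activation, against 14.3% called lower. The block added no call for the difference between the activation changes. For KO against WT it matched arrays of both genotypes by replicate number, a pairing that no label states. Between the WT states arrays of the same number correlated at 0.23, -0.06 and -0.11. The blocked calls at T6 and in WT activation therefore rest on a pairing that is not supported. The blocked KO activation calls draw part of their spread estimate from the same pairing of the WT arrays.

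The B cell marker mean was itself higher in KO at T0 (8.26 against 7.16 in WT). With it as a covariate the T0 differences between genotypes were -0.18 (H2-Aa), -0.15 (H2-Ab1), -0.12 (H2-Eb1), -0.0908 (Cd74) and -0.0068 (Ciita). With the macrophage and monocyte mean they were -0.22 (H2-Aa) and -0.0428 (Cd74). In that fit 0 members were called in WT activation, at 1.95 (H2-Aa), 0.41 (H2-Ab1), 0.87 (H2-Eb1), 2.44 (Cd74) and 1.34 (Ciita), with SE from 1.64 to 2.52. In KO activation it gave 2.53, 0.97, 1.64, 3.12 and 1.48 in that order, with SE from 1.52 to 2.34. These large errors come with a covariate whose T0 and T6 values do not overlap. The cause of the other changes was not tested.

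Centring each array on its median turned the split of all genes called in WT activation from 1492 higher and 1810 lower to 2051 and 1258, and in KO activation from 1372 and 1374 to 1520 and 1136. Quantile normalization gave 1607 and 1615 in WT and 1514 and 1305 in KO. In KO against WT at T6 the split was 4 and 9, 3 and 20 after centring, and 2 and 6 after quantile normalization. The members kept their directions under both.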
